A study of Mus musculus with 11 samples.

Results

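The 11 mouse small cell lung tumors of the series were split by how much RNA of the lung surfactant gene Sftpc each one held, and expression was compared across the split with the doxycycline group as a covariate. A tumor was called lung-containing when Sftpc reached 100 CPM (gene counts scaled to a library total of 1000000) and lung-poor below that. This gave 5 lung-containing tumors (2 MYCN ON and 3 MYCN OFF) and 6 lung-poor tumors (5 MYCN ON and 1 MYCN OFF), which together are all 11 samples. The groups were chosen by the Sftpc counts of these same libraries, so Sftpc is described without a test. Every other p-value of the split says how a gene goes with a division drawn from these data, not with a treatment.

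Poly(A) RNA was sequenced from whole tumors. All 11 shared the genotype given as Rb;p53, TRE-MYCN and LSL-RTTA, which joins tumor suppressor alleles to a MYCN transgene under a tetracycline response element and to a transactivator that needs Cre recombination to be made. The 7 MYCN ON tumors were kept on doxycycline, and the 4 MYCN OFF tumors had been without it for 7 days. Separate mice are not named as the source of the samples, so p-values measure only the spread between these 11 libraries, and doxycycline and the transgene always changed together.

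Alveolar type II cells make surfactant, the film of lipids and of proteins encoded by Sftpc, Sftpb, Sftpa1 and Sftpd that keeps air sacs open, and flat type I cells form the gas exchange surface. Club cells secrete Scgb1a1 in the airways, ciliated cells follow the factor Foxj1, and Tie1 is a receptor of vascular endothelium. Myh6 is a myosin of heart muscle, a tissue that in mice also sheathes the pulmonary veins. Small cell lung cancer is a neuroendocrine carcinoma.

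Sftpc was at 438 and 1323 CPM in MYCN ON tumors 3 and 5, and at 10376, 1546 and 1461 CPM in MYCN OFF tumors 1, 3 and 4. The 6 lung-poor tumors held 0.381 to 5.58 CPM, with a median of 3.10 and 5 to 70 reads each. The values nearest to the limit were 438 CPM in MYCN ON tumor 3 and 5.58 CPM in MYCN ON tumor 7, both far from it, and no tumor fell between them. MYCN OFF tumor 1 stood far above the other lung-containing tumors, and lung-poor MYCN OFF tumor 2 held skeletal muscle RNA at 654 CPM summed over 15 genes.

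The other defining markers followed the split to different degrees. Scgb1a1 was at 104 and 944 CPM in lung-containing MYCN ON tumors 3 and 5, at 15186, 494 and 2456 CPM in MYCN OFF tumors 1, 3 and 4, and at 0.457 to 25.1 CPM (median 3.68) in the lung-poor tumors. Tie1 was at 12.5, 18.0, 95.7, 23.7 and 29.2 CPM in the same lung-containing tumors and at 3.87 to 8.03 CPM (median 6.47) in the lung-poor ones. For both genes every lung-containing tumor was above every lung-poor tumor. The lung term, the log2 fold change of lung-containing over lung-poor tumors at equal doxycycline group, was 6.94 ± 1.6 (SE) for Scgb1a1, with an adjusted p of 0.153. For Tie1 it was 1.68 ± 0.51 (adjusted p = 0.285). These p-values, like all adjusted p-values of single genes in the report, come from edgeR's quasi-likelihood test with Benjamini-Hochberg adjustment over 15237 genes.

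Foxj1 and Myh6 did not divide the tumors as Sftpc did. Foxj1 was at 1.83, 12.6, 154, 25.3 and 19.9 CPM in lung-containing tumors and reached 16.7 CPM in lung-poor MYCN OFF tumor 2, and its lung term of 2.23 ± 0.76 had an adjusted p of 0.330. Myh6 was at 5.80, 115, 153, 208 and 2.01 CPM in the lung-containing tumors, and at 0 in lung-poor MYCN ON tumors 1, 2 and 6, at 8.0 and 8.45 in MYCN ON tumors 4 and 7, and at 38.6 in MYCN OFF tumor 2. Its lung term was 3.14 ± 1.40 (adjusted p = 0.419). The name lung-containing thus holds for alveolar and club cell RNA in all 5 tumors, and for heart muscle RNA in MYCN ON tumor 5 and MYCN OFF tumors 1 and 3. Whether these reads came from lung tissue in the sample or from tumor cells was not tested, and in whole-tumor RNA fewer cells of a type and less RNA per cell cannot be told apart.

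**Figure D1:**
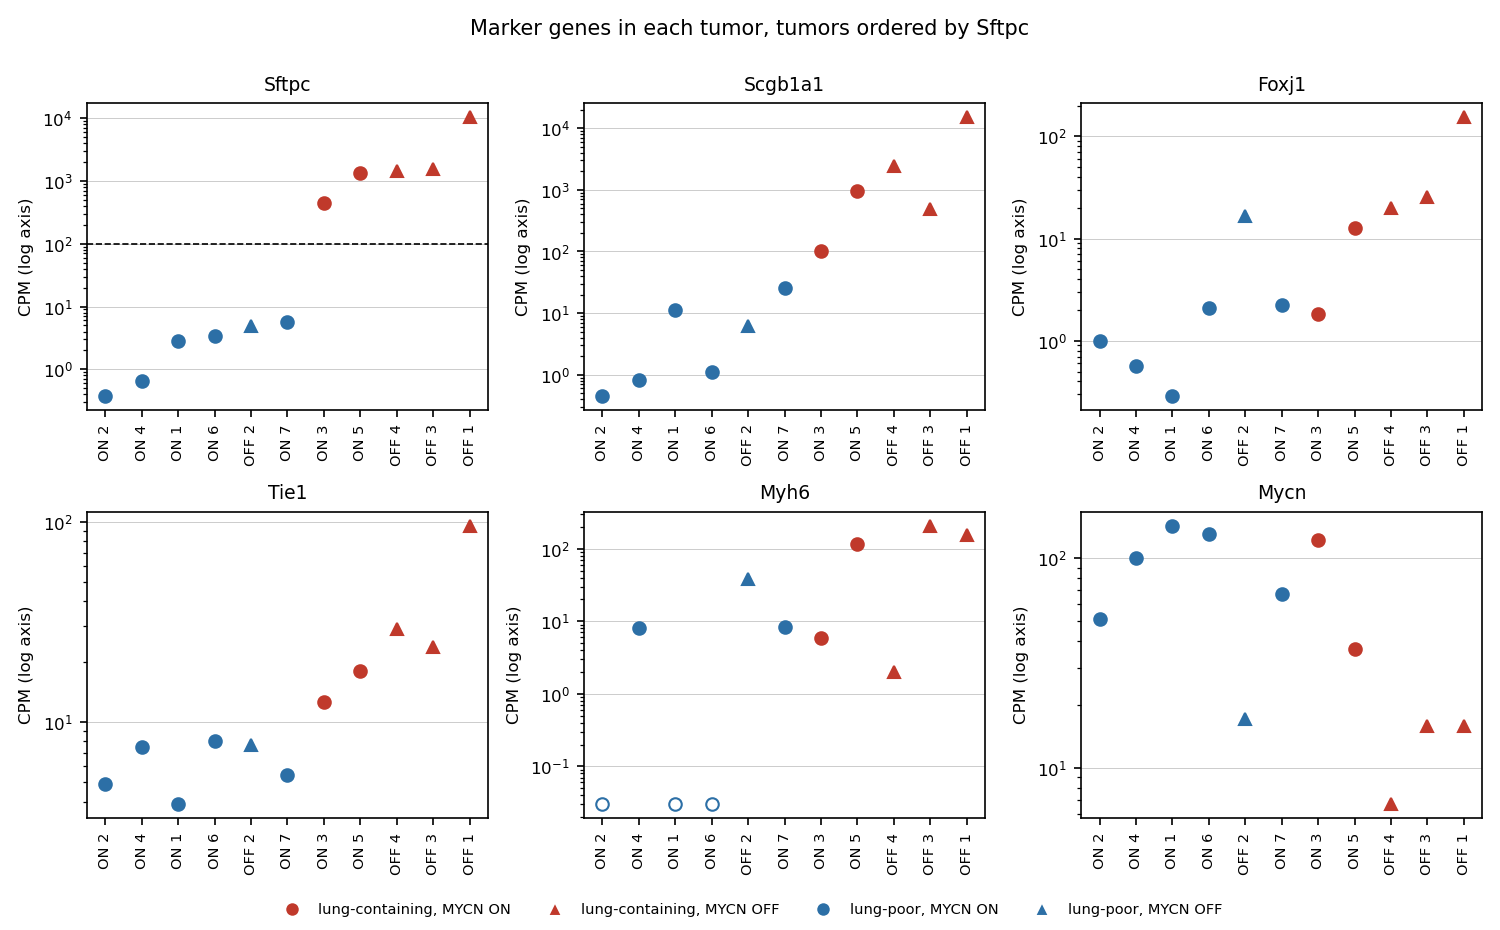
Levels of 5 marker genes and of Mycn in each tumor, as CPM on log axes, with tumors ordered by Sftpc. Red marks lung-containing and blue lung-poor tumors, circles MYCN ON and triangles MYCN OFF, the dashed line is the limit of 100 CPM, and open circles are tumors with no read. Sftpc jumps from 5.58 to 438 CPM, Scgb1a1 and Tie1 keep the groups apart, and Foxj1, Myh6 and Mycn overlap between them.

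Outside Sftpc, 30 genes were called at an adjusted p below 0.05, and all 30 were higher in the lung-containing tumors. They made up 0.197% of the 15236 other genes tested. Cldn18, Lamp3, Sfta2, Tcf21 and Cyp3a13 among them had at most 2 reads in any lung-poor tumor. Such genes passed the low-count filter only through the lung-containing tumors, so a call could only be higher. No gene was called lower (0%), although 789 were lower and 999 higher at an unadjusted p below 0.05. The smallest adjusted p among lower genes was 0.115, DESeq2 called 28 lower and limma voom none. The typical gene moved little, with a median lung term of -0.08 and quartiles of -0.34 and 0.27 over all genes tested. The lung term was above 0 for 42.1% of all genes, the share to set beside the list counts below.

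Of the 30 called genes, 29 had every lung-containing tumor above every lung-poor one, against 3.80% of all genes (579), and 25 genes (0.164%) had every one below. The exception was Wfdc2, a secreted airway protein, at 23.8 CPM in lung-poor MYCN OFF tumor 2 and 18.6 CPM in lung-containing MYCN ON tumor 3. The calls rest on the same difference, so nothing is read from this count. The call count rested on single tumors: it was 6 without MYCN ON tumor 5, 9 without MYCN ON tumor 1, 10 without MYCN OFF tumor 2, 18 without MYCN ON tumor 2 or without MYCN ON tumor 3, 19 without MYCN OFF tumor 4 and 57 without MYCN OFF tumor 1. DESeq2 called 350 genes higher and limma voom 5. Cldn18, Lamp3, Sftpb, Sftpa1 and Inmt were called whichever single tumor was left out; they were chosen after this was seen.

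Alveolar type II genes made up the largest called group among the lists examined. Type II cells also make Sftpc, which set the split, so these calls describe the split and are not independent support for it. Of 14 tested members besides Sftpc, 8 were called higher, against 0.197% of all genes. The groups stood apart for 10 of them, against 3.80% of all genes, and the median lung term was 4.83. The called members were the surfactant genes Sftpa1, Sftpb and Sftpd, Lamp3 of the lamellar bodies that store surfactant, the phosphate transporter Slc34a2, the aspartic protease Napsa that trims surfactant proteins, the lung chemokine Cxcl15 and the chitinase-like Chi3l1. The count of 8 was 3 without MYCN ON tumor 5, 4 without MYCN ON tumor 1 and 5 without MYCN OFF tumor 2.

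Sftpb was at 99.2, 254, 2594, 347 and 479 CPM in MYCN ON tumors 3 and 5 and MYCN OFF tumors 1, 3 and 4, and at 0 to 1.83 CPM (median 0.405) in the lung-poor tumors. Its lung term was 8.54 ± 0.90 (adjusted p = 0.00405). The lung-poor tumors held at most 20 Sftpb reads each, and the lowest lung-containing tumor lay far above all of them. Lamp3 was at 16.3, 35.2, 408, 71.5 and 84.8 CPM against 0 to 0.169 CPM, which was at most 2 reads (8.99 ± 0.85, adjusted p = 0.00288). Folds of this size depend on the count the model adds to near-empty libraries, so their order carries little information.

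Sftpa1 was at 97.6, 276, 2566, 368 and 355 CPM in the lung-containing tumors and at 0.0762 to 1.44 CPM (median 0.454) in the lung-poor ones, with a lung term of 9.03 ± 0.98 (adjusted p = 0.00405). Slc34a2 was at 70.9, 156, 1420, 186 and 234 CPM against 0 to 1.59 CPM (8.67 ± 1.10, adjusted p = 0.0109). MYCN OFF tumor 1 was the highest and MYCN ON tumor 3 the lowest lung-containing tumor for both, as for Sftpc. The other called members had lung terms of 4.45 (Chi3l1), 5.21 (Napsa), 7.88 (Sftpd) and 8.59 (Cxcl15).

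The tested type II markers not called were Abca3, Lpcat1, Ctsh, Etv5, Muc1 and S100g. Abca3, the lipid pump of lamellar bodies, was at 69.6 to 376 CPM in lung-containing and 34.7 to 119 CPM in lung-poor tumors, with a lung term of 0.34 ± 0.36 (adjusted p = 0.742). Lpcat1, which remodels surfactant lipid, was at 30.1 to 132 against 27.5 to 38.7 CPM (0.39 ± 0.40, adjusted p = 0.733). Both ranges overlapped. Ctsh and Etv5 kept the groups apart without passing the test, with lung terms of 2.20 (adjusted p = 0.119) and 2.10 (adjusted p = 0.322). Muc1 was at 25.6 to 343 against 2.06 to 25.8 CPM (2.36 ± 0.69, adjusted p = 0.277). S100g was low in the lung-poor tumors, at 0 to 3.07 CPM, against 1.76 to 51.1 CPM (3.22 ± 1.55, adjusted p = 0.452).

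**Figure D2:**
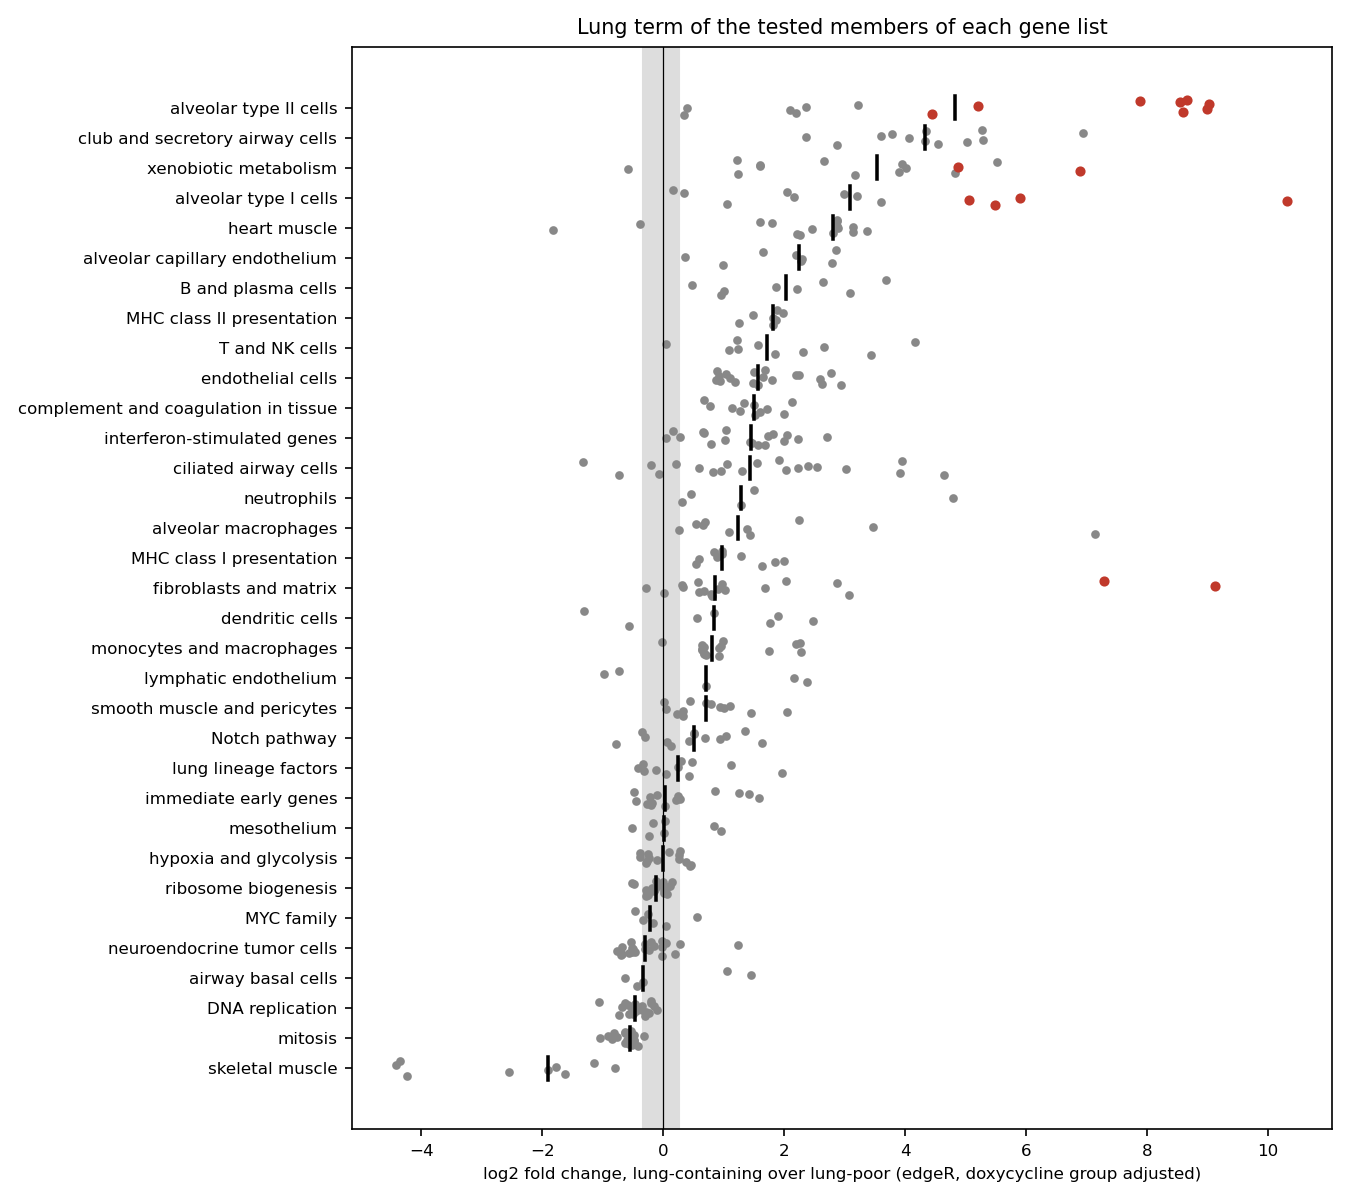
Lung term (log2 fold change of lung-containing over lung-poor tumors, doxycycline group adjusted) of every tested member of the lists with 5 or more tested members. Each point is a gene, red points are called, the black bar is the list's median and the grey band spans the quartiles of all genes, -0.34 to 0.27. The called genes lie in the type II, type I, xenobiotic and fibroblast lists, and skeletal muscle is the only list with a median below -1.

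Promoters of 4 called type II or surfactant-linked genes are shown because letters known as binding motifs of the lung factors NKX2-1 (CTCAAG) and FOXA (TGTTTGC or TGTTTAC) occur in them. Sequences are the 250 bases before the RefSeq start on GRCm38.p6, read 5′ to 3′ on the gene's strand, with the matches on either strand in capitals. They lie at chr6:72304360-72304609 (Sftpb, plus strand), chr14:41131538-41131787 (Sftpa1, plus strand), chr17:35649458-35649707 (Sfta2, plus strand) and chr16:19706366-19706615 (Lamp3, minus strand). The submitters' processing notes name another build, mm9, for the counts.
Sftpb: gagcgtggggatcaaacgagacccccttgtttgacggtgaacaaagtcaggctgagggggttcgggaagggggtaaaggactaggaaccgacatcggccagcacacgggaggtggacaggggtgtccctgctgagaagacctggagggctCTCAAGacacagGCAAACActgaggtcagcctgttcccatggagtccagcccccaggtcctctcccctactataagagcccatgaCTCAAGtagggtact
Sftpa1: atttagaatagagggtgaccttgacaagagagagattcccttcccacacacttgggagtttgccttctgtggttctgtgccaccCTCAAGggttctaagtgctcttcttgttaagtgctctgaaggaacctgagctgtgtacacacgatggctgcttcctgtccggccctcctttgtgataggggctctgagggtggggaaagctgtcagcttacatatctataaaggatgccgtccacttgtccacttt
Sfta2: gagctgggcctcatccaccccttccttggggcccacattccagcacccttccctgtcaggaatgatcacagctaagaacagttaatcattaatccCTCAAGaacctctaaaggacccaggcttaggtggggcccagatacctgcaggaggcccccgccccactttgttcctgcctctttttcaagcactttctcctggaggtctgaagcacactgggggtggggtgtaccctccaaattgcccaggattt
Lamp3: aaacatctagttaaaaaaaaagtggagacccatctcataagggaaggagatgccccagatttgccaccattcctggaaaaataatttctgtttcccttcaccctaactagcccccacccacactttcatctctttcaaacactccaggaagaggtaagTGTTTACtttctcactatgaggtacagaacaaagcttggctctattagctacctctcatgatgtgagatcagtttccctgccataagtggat
The Sftpb promoter held CTCAAG at 100 and 15 bases and the reverse complement of TGTTTGC at 88 bases before the start. Of the 30 called genes 25 had a promoter in the table. CTCAAG occurred in 5 of them (20%: Sftpb, Sftpa1, Sfta2, Tcf21 and Fbp2), against 15.2% of all 27025 genes and 13.3% of all 32851 promoters of this length. The forkhead letters occurred in 4 (16%: Cldn18, Lamp3, Sftpb and Serpinb9), against 8.22% of genes and 7.29% of promoters. A match is a run of letters and not evidence of binding.

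Type I genes came next. Of 12 tested members 4 were called higher, against 0.197% of all genes. The groups stood apart for 9 of them, against 3.80% of all genes, and the median lung term was 3.10. The count of 4 was 1 without MYCN ON tumor 5 and 2 when tumor 1 or 3 of the MYCN ON group or tumor 2 of the MYCN OFF group was left out, while DESeq2 called 8. Cldn18, the claudin of alveolar tight junctions, which type II cells make as well, had the smallest p of all genes. It was at 61.5, 59.6, 595, 129 and 222 CPM in the lung-containing tumors and at 0 to 0.194 CPM, at most 2 reads, in the lung-poor ones. Its lung term was 10.32 ± 0.72 (adjusted p = 2.43e-04).

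Ager, the receptor that marks type I cells, was at 96.3, 131, 865, 230 and 367 CPM in the lung-containing tumors and at 0.762 to 12 CPM (median 2.23) in the lung-poor ones. The groups stood apart, and the lung term was 5.49 ± 0.84 (adjusted p = 0.0321). Clic5, a channel-like protein, had a lung term of 5.06 ± 0.60 (adjusted p = 0.00730) and Col4a3, a chain of the alveolar basement membrane, of 5.90 ± 0.82 (adjusted p = 0.0160). Hopx, also expressed in type I cells, was at 22.1 to 261 CPM against 3.40 to 10.2 CPM with an adjusted p of 0.0885.

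The lung's own mesenchyme and detoxifying enzymes held further called genes. Of 18 fibroblast and matrix genes 2 were called, against 0.197% of all genes. Inmt, a methyltransferase abundant in lung, was at 26.3, 51.7, 845, 54.5 and 112 CPM against 0 to 0.324 CPM (9.12 ± 0.99, adjusted p = 0.00405). Tcf21, a factor of lung mesenchyme, was at 3.13 to 83.6 CPM in lung-containing tumors and had 3 reads over all 6 lung-poor tumors (adjusted p = 0.0177). Over the list 17 of 18 had a lung term above 0, and the median was 0.86. The collagen Col1a1 was at 52.8 to 270 CPM in lung-containing and 76.0 to 400 CPM in lung-poor tumors, with a lung term of 0.02 ± 0.60 (adjusted p = 0.993). Leaving out single tumors left 1 or 2 fibroblast calls.

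Xenobiotic enzymes, many of which club cells express, had a median lung term of 3.53 over 14 tested members. Cyp4b1 was called, at 15.6, 16.7, 156, 24.6 and 44.1 CPM against 0.581 to 0.957 CPM (4.88 ± 0.66, adjusted p = 0.0133). Cyp2b10 was also called, at 4.27 to 71.5 CPM against 0 to 0.399 CPM (adjusted p = 0.0356). In all, 2 of the 14 were called, against 0.197% of all genes, and 9 kept the groups apart, against 3.80% of all genes. The count of 2 was 0 without tumor 1 or 5 of the MYCN ON group and 1 without tumors 2, 3, 4 or 6 of it or tumors 2 or 4 of the MYCN OFF group, and DESeq2 called 8.

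The remaining called genes were in none of the lists, and most were named to account for every call. Sfta2, a surfactant-associated protein, was at 3.36, 10.1, 40.3, 9.02 and 14.1 CPM in lung-containing tumors and had 1 read over all lung-poor tumors (adjusted p = 0.00405). Hc, complement component C5, was at 11.4, 84.2, 549, 68.5 and 58.0 CPM against 0 to 0.507 CPM (8.74 ± 1.16, adjusted p = 0.0132). The others were A930038C07Rik, AA986860, Col4a4, Cyp3a13, the zinc transporter Slc39a8, the granzyme inhibitor Serpinb9, Wfdc2, the chloride channel Ano1, the retinol-esterifying enzyme Lrat, Fbp2, the connexin Gja5 and Clic3, with adjusted p-values from 0.0109 (A930038C07Rik) to 0.0476 (Clic3).

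Airway secretory genes had high and uneven levels and no call. All 12 tested club and secretory genes had a lung term above 0 with a median of 4.33, and 11 had an unadjusted p below 0.05. The groups stood apart for 7 of them, against 3.80% of all genes. The count of calls was 7 with DESeq2 and 0 with limma voom. Cyp2f2, a club cell P450, was at 16.7, 95.1, 1211, 165 and 368 CPM in the lung-containing tumors and at 0 to 6.69 CPM in the lung-poor ones (5.29 ± 1.10, adjusted p = 0.115). The glutathione transferase Gsta3 was at 5.11 to 64.6 against 0.0969 to 1.21 CPM (4.06 ± 0.83, adjusted p = 0.111). Bpifa1, a secreted protein of upper airways, was at 1742 CPM in MYCN OFF tumor 4 and at 0.687 CPM in MYCN ON tumor 3, both lung-containing.

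Ciliated cell genes overlapped between the groups more often than not. Of 20 tested members 16 had a lung term above 0, and the median was 1.44. Cdhr3 alone kept the groups apart, beside 3.80% of all genes. None was called (6 at an unadjusted p below 0.05, 1 by DESeq2, none by limma voom). Cdhr3 was at 1.07, 3.30, 55.1, 2.13 and 3.46 CPM against 0 to 0.755 CPM (3.92 ± 1.08, adjusted p = 0.259). The summed ciliated level was 1183 CPM in MYCN OFF tumor 1, 96.4 to 268 CPM in the other lung-containing tumors and 50.5 to 217 CPM in the lung-poor ones.

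Among the 5 lung-containing tumors, the spread relative to Sftpc differed between genes. Sftpa1 reads were 22.3%, 20.9%, 24.7%, 23.8% and 24.3% of Sftpc reads in MYCN ON tumors 3 and 5 and MYCN OFF tumors 1, 3 and 4, a 1.18-fold range over tumors whose Sftpc level ran from 438 to 10376 CPM. Slc34a2 ranged 1.38-fold (11.8% to 16.2%), Napsa 1.65-fold and Sftpb 1.71-fold (19.2% to 32.8%), whereas Lamp3 ranged 2.18-fold, Sftpd 2.56-fold and Cxcl15 3.64-fold. These are ratios of read counts that gene length also sets, so only their spread across tumors is compared.

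Scgb1a1 ran from 23.7% of Sftpc in MYCN ON tumor 3 to 168% in MYCN OFF tumor 4, a 7.10-fold range, and its fellow secretoglobin Scgb3a2 ranged 8.0-fold. Ager of type I cells ranged 3.01-fold (8.34% to 25.1%) and Foxj1 3.92-fold. Myh6 ranged 97.7-fold, from 0.138% in MYCN OFF tumor 4 to 13.4% in MYCN OFF tumor 3. The macrophage receptor Marco ranged 182-fold and was highest relative to Sftpc in MYCN ON tumor 3. MYCN OFF tumors 1 and 4 thus held most Scgb1a1 and Scgb3a2 relative to Sftpc, and MYCN OFF tumor 3 and MYCN ON tumor 5 most Myh6.

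**Figure D3:**
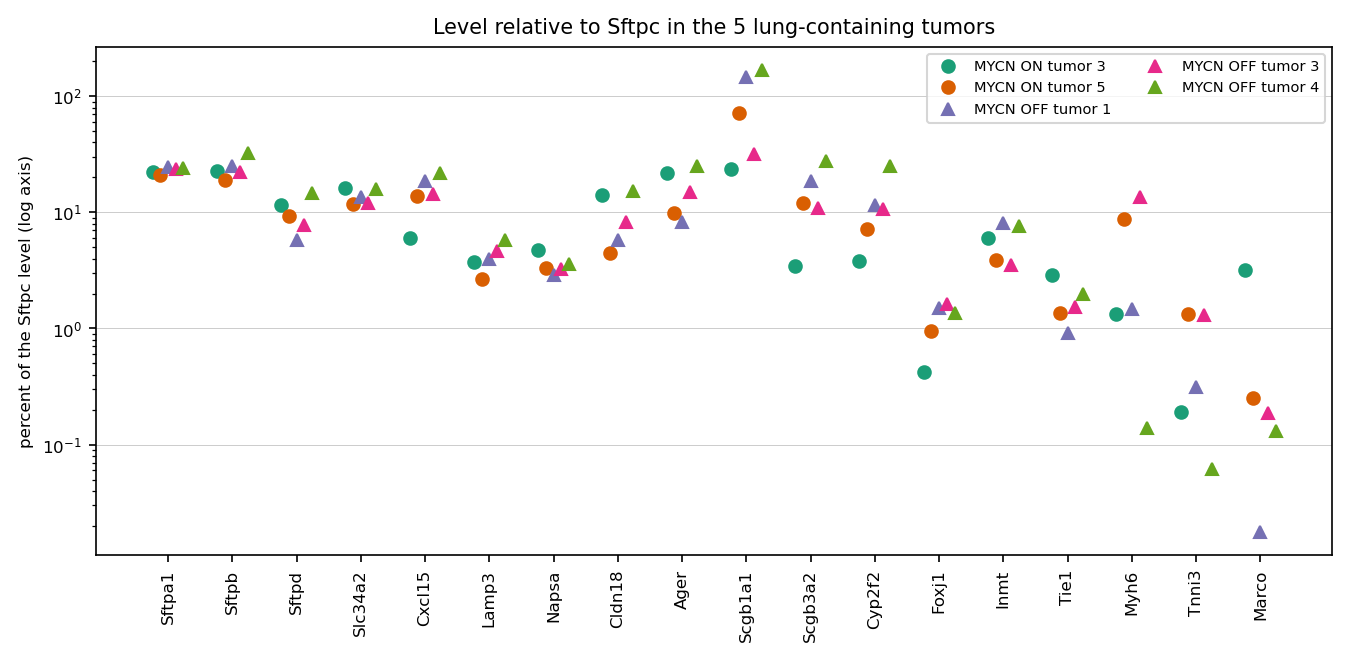
Level of 18 genes as a percent of the Sftpc level in each of the 5 lung-containing tumors, on a log axis. Circles are MYCN ON and triangles MYCN OFF tumors. The 5 points of Sftpa1 nearly coincide (20.9% to 24.7%), whereas those of Myh6 spread from 0.138% to 13.4%.

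No endothelial gene was called. All 19 of the list had a lung term above 0, against 42.1% of all genes, with a median of 1.56. Of these genes 12 kept the groups apart, against 3.80% of all genes. DESeq2 called 7 of them and limma voom none, and 14 had an unadjusted p below 0.05. Ptprb, an endothelial phosphatase, was at 50.7, 76.1, 261, 65.0 and 61.7 CPM in lung-containing tumors and at 10.3 to 18.6 CPM (median 15.5) in lung-poor ones (2.24 ± 0.47, adjusted p = 0.119). Calcrl, the adrenomedullin receptor, was at 16.2 to 306 against 3.78 to 10.9 CPM (2.94 ± 0.81, adjusted p = 0.260). The 8 genes of alveolar capillaries had a median of 2.24, and 3 of them (Clec14a, Gpihbp1 and Cd36) kept the groups apart. The 5 lymphatic genes went both ways, from -0.98 to 2.38, with 3 above 0.

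Most immune genes had lung terms above 0. None was called by edgeR or by limma voom in the lists of monocytes and macrophages, T and NK cells, B and plasma cells and MHC class II. DESeq2 called 2, 2, 4 and 5 of them, and 6, 5, 5 and 7 had an unadjusted p below 0.05. Medians of the lung term were 0.81 over 16 monocyte and macrophage genes, 1.71 over 10 T and NK genes, 2.04 over 8 B and plasma genes and 1.82 over 7 MHC class II genes. Lyz2, the lysozyme of macrophages and type II cells, was at 429, 541, 5289, 1391 and 1686 CPM in lung-containing tumors and at 69.4 to 396 CPM in lung-poor ones (2.26 ± 0.76, adjusted p = 0.322). Dendritic cell genes went both ways, with 5 of 7 above 0 and a range of -1.31 to 2.47. Igj, the joining chain of antibodies, was at 56.2 to 1056 against 0.872 to 47.1 CPM. Chi3l3, a product of alternatively activated macrophages, was at 23.8, 194, 391.7, 29.5 and 4.24 CPM against 0.0809 to 1.52 CPM (7.14 ± 1.25, adjusted p = 0.0584).

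MHC class I genes had a median lung term of 0.98 over 10 members, all above 0 and none called (5 at an unadjusted p below 0.05, 4 by DESeq2, none by limma voom). H2-D1, a classical heavy chain, was at 166, 278, 876, 427 and 356 CPM in lung-containing tumors and at 62.6 to 84.3 CPM in lung-poor ones. It kept the groups apart, against 3.80% of all genes, at a lung term of 1.84 ± 0.36 (adjusted p = 0.0934). Lung-poor MYCN OFF tumor 2 was at 81.1 CPM, inside the range of the lung-poor MYCN ON tumors. Tap2, the peptide transporter, differed: MYCN OFF tumor 2 was its highest lung-poor tumor at 66.3 CPM, and the lung term was 0.85 ± 0.47 (adjusted p = 0.508). Near-identical copies can cost MHC class I genes reads, so their levels are uncertain to that extent.

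Heart and skeletal muscle RNA marked different tumors. Summed over 17 heart genes the level was 668, 631 and 763 CPM in MYCN ON tumor 5 and MYCN OFF tumors 1 and 3, but 38 and 50.2 CPM in the other lung-containing tumors, MYCN ON tumor 3 and MYCN OFF tumor 4. Lung-poor MYCN OFF tumor 2 held 186 CPM and the lung-poor MYCN ON tumors 18.5 to 97.0 CPM. Accordingly none of 15 tested heart genes kept the groups apart and none was called (7 at an unadjusted p below 0.05, 1 by DESeq2, none by limma voom), although the median lung term was 2.81. Myh7, a slow myosin of heart muscle, had the smallest p of them (3.38 ± 1.0, adjusted p = 0.278).

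Skeletal muscle genes had lung terms below 0 in all 9 tested members, with a median of -1.91. Their summed level was 654 CPM in lung-poor MYCN OFF tumor 2 and 122 CPM in lung-poor MYCN ON tumor 2, against 8.93 to 29.5 CPM in the other 9 tumors. Acta1, skeletal actin, was at 165 and 37.2 CPM in those tumors and at 0.447 to 3.77 CPM elsewhere. Its lung term of -4.23 ± 1.28 was not called by edgeR (adjusted p = 0.283), and none of the list was, nor by limma voom, whereas 6 members had an unadjusted p below 0.05 and DESeq2 called Acta1. The 1 lung-poor MYCN OFF tumor, against which the MYCN OFF side of the split is measured, was therefore the one with most skeletal muscle RNA, and the part of that tissue in the lung term was not tested.

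**Figure D4:**
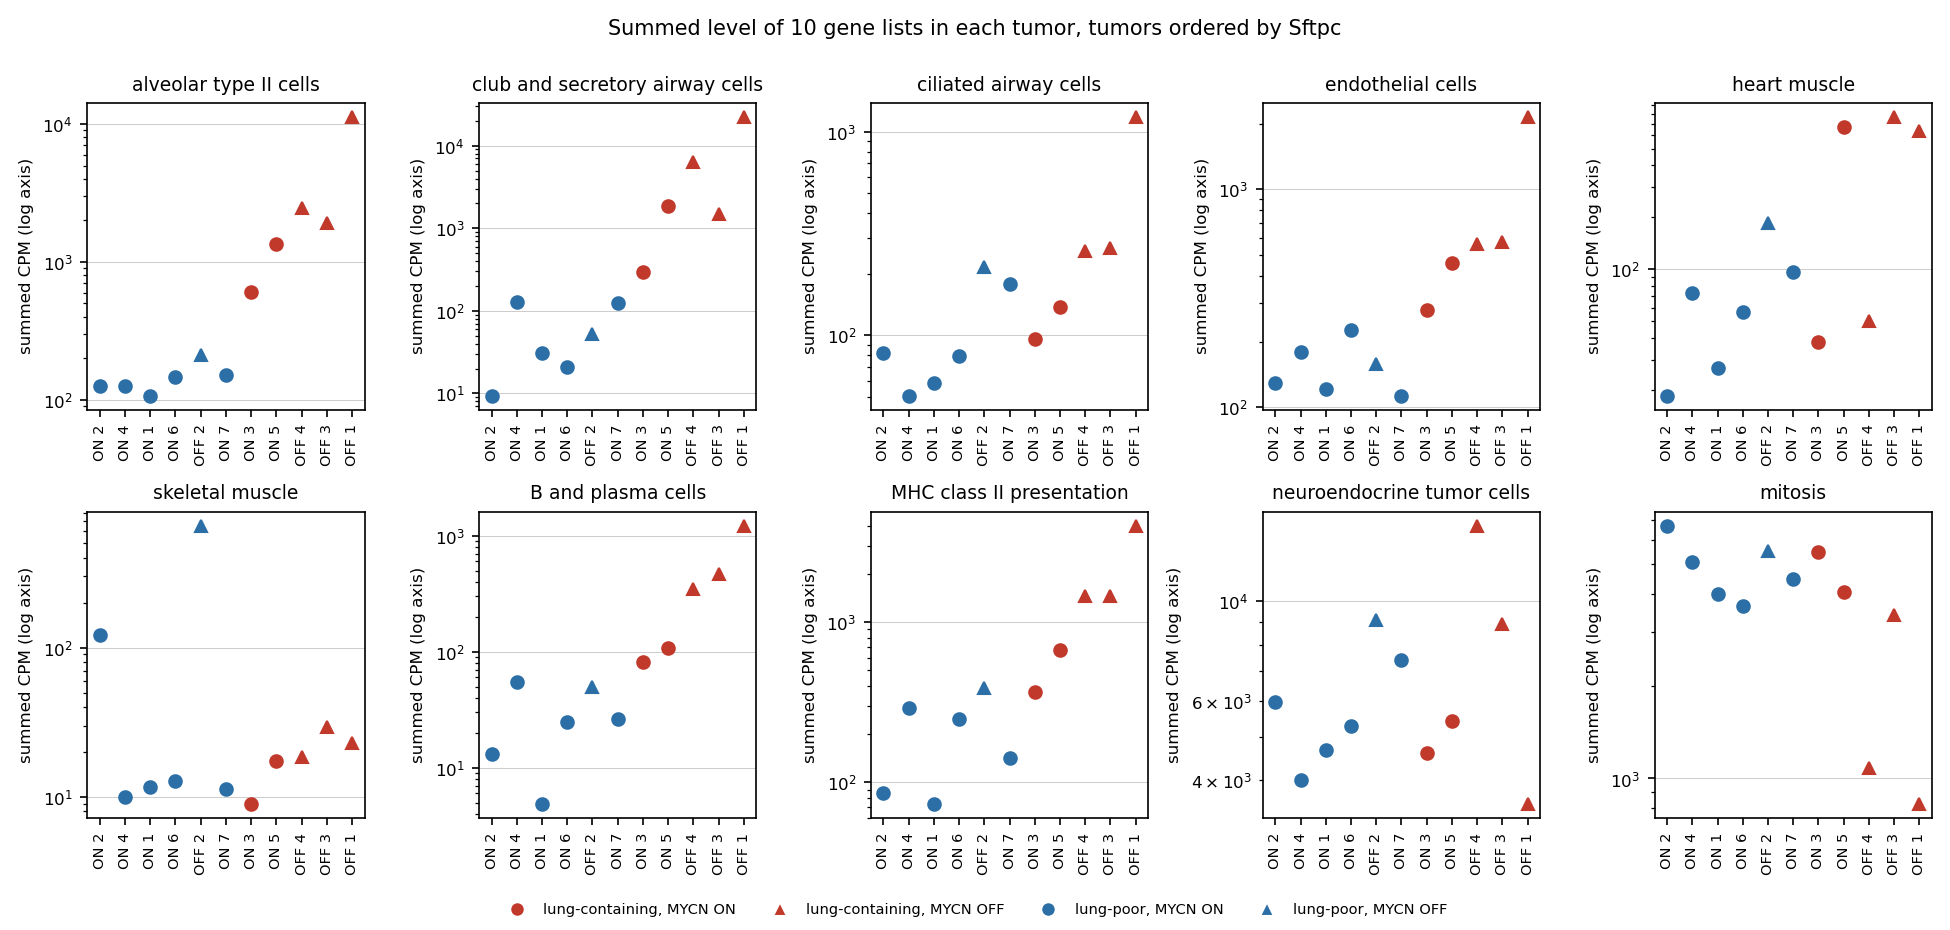
Summed CPM of 10 gene lists in each tumor on log axes, with tumors ordered by Sftpc, which is left out of the type II sum. Colors and symbols are as in the plot of marker genes. Type II, club, endothelial and B cell sums keep the groups apart, heart muscle is high in 3 of 5 lung-containing tumors, and skeletal muscle peaks in lung-poor MYCN OFF tumor 2 at 654 CPM.

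Of 22 genes of neuroendocrine tumor cells none was called. Scg2 alone had an unadjusted p below 0.05 or was called by DESeq2, and limma voom called none of them. The median lung term was -0.30, and the summed level was 3539 to 14708 CPM in lung-containing and 4010 to 9095 CPM in lung-poor tumors. Scg2, a secretory granule protein, was at 82.5, 91.6, 319, 548 and 810 CPM against 20.9 to 154 CPM (1.24 ± 0.39, adjusted p = 0.296), and the groups overlapped through MYCN OFF tumor 2.

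Nkx2-1, the lung and thyroid factor whose letters were sought in the promoters above, was at 258, 715, 259, 541 and 560 CPM in the lung-containing tumors and at 362 to 808 CPM (median 455) in the lung-poor ones. Its lung term was -0.34 ± 0.32 (adjusted p = 0.704), and its level overlapped between the groups. Which cells its reads came from was not tested. Foxa1 and Foxa2 overlapped too, with lung terms of -0.31 and -0.11. None of the 11 lung lineage factors had an unadjusted p below 0.05, and neither DESeq2 nor limma voom called any.

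Proliferation genes leaned the other way without a call. All 20 mitosis genes had a lung term below 0 (median -0.55), as had all 20 DNA replication genes (median -0.46), beside a median of -0.08 over all genes. Only 42.1% of all genes were above 0, so most genes were below it too. With scaling by library totals or upper quartiles the mitosis genes stayed below 0 in all 20 and the replication genes in 19, while the median of all genes moved to 0.05. Kif11, a spindle motor, was at 191, 110, 43.2, 199 and 45.1 CPM against 184 to 478 CPM (-1.05 ± 0.47, adjusted p = 0.418). At an unadjusted p below 0.05 there were 1 mitosis and 3 replication genes, and DESeq2 and limma voom called none.

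The summed mitosis level differed between tumors of the same side. It was 824 and 1085 CPM in lung-containing MYCN OFF tumors 1 and 4, 3430 CPM in MYCN OFF tumor 3, and 5492 and 4075 CPM in lung-containing MYCN ON tumors 3 and 5. The lung-poor tumors lay at 3665 to 6694 CPM, and MYCN OFF tumor 2 among them at 5548 CPM. The MYCN ON tumors overlapped across the split, and the low values belonged to MYCN OFF tumors 1 and 4. These held most club cell RNA. Their summed neuroendocrine levels were 3539 and 14708 CPM, the lowest and the highest of all tumors. What set the mitosis level was not tested.

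Mycn, the gene the design switches, was at 122, 36.8, 15.8, 15.7 and 6.70 CPM in lung-containing MYCN ON tumors 3 and 5 and MYCN OFF tumors 1, 3 and 4. In lung-poor tumors it was at 142, 51.3, 100, 131 and 67.0 CPM in MYCN ON tumors 1, 2, 4, 6 and 7 and at 17.0 CPM in MYCN OFF tumor 2. Every MYCN ON tumor was above every MYCN OFF tumor whichever side of the split it was on. The lung term was -0.46 ± 0.43 (adjusted p = 0.699) and the doxycycline term beside it, MYCN ON over MYCN OFF, was 2.85 (adjusted p = 0.00499). The labels do not say whether the transgene is of mouse or human sequence, so how many of these reads it gave is unknown.

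Because 3 of 4 MYCN OFF tumors but 2 of 7 MYCN ON tumors were lung-containing, the split and the doxycycline group were partly aligned, and the doxycycline comparison changed when the split entered the model. Without the split 4475 genes were called for doxycycline (29.4%), 2437 higher in MYCN ON (16.0%) and 2038 lower (13.4%). Beside the split 2380 were called (15.6%), 1591 higher (10.4%) and 789 lower (5.18%). Both fits shared 2318 genes. Of the calls made without the split 51.8% were still made beside it, 64.7% of the higher and 36.4% of the lower ones. A model with a further term has fewer degrees of freedom and a less certain doxycycline term, so a lost call is not a measured absence.

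The counts beside the split depended on scaling and on tumors. With library totals in place of TMM factors 827 were higher and 1340 lower, so the share of calls that were higher went from 66.8% to 38.2%, with 60.0% for RLE and 50.4% for upper quartile factors, and the median doxycycline term of all genes moved from -0.04 to -0.30 with library totals and to -0.20 with upper quartiles. Higher calls were 727 without MYCN OFF tumor 2 and 756 without MYCN ON tumor 3. Lower calls were 74 without MYCN OFF tumor 2, 345 without MYCN ON tumor 3, 426 without MYCN ON tumor 5 and 510 without MYCN OFF tumor 4.

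Calls for lower levels in MYCN ON became fewer in lists of vessel, airway and immune cells, as they did over all genes, where 36.4% of them were kept. Of all genes 13.4% were called lower without and 5.18% beside the split. Endothelial genes went from 11 of 19 to 0, B and plasma genes from 7 of 8 to 0, T and NK genes from 8 of 10 to 1, monocyte and macrophage genes from 10 of 16 to 2, ciliated genes from 11 of 20 to 3 and MHC class II genes from 7 of 7 to 2. The median doxycycline term of endothelial genes went from -1.71 to -0.78. Cd79b, part of the B cell receptor, went from -2.79 (adjusted p = 0.0181) to -1.75 (adjusted p = 0.0840). Cd74, the class II invariant chain, went from -2.74 (adjusted p = 0.00811) to -1.79 (adjusted p = 0.0431) and kept its call.

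Ribosome biogenesis, interferon and MHC class I genes had calls for most of their members in both fits. Ribosome biogenesis genes were called higher in MYCN ON for 18 of 20 without and 16 of 20 beside the split, with medians of 1.74 and 1.64. Over all genes 16.0% and 10.4% were called higher. Interferon-stimulated genes were called lower for 15 of 18 and then 12, and MHC class I genes for 9 of 10 and then 6. Over all genes 13.4% and then 5.18% were called lower. Ddx58, a sensor of viral RNA, was at 12.7, 15.6, 126, 71.5 and 65.7 CPM in lung-containing and 3.20 to 15.1 CPM in lung-poor tumors. Its doxycycline term was -2.80 (adjusted p = 0.00226) without and -1.93 (adjusted p = 0.00969) beside the split.

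H2-D1 and H2-K1 differed from 2 processing genes of the same pathway, Tap2 and Tapbp. Of the list's 10 genes 6 were called lower beside the split, against 5.18% of all genes, so other members lost or lacked a call too. The doxycycline term of H2-D1 was -1.64 (adjusted p = 0.0380) without the split and -0.65 (adjusted p = 0.274) beside it, and that of H2-K1 went from -1.84 (adjusted p = 0.0471) to -0.81 (adjusted p = 0.325). Tap2 remained called, with -3.11 (adjusted p = 0.00172) and then -2.88 (adjusted p = 0.00434), as did Tapbp, with -2.42 (adjusted p = 0.00107) and then -1.93 (adjusted p = 0.00346). H2-T23, a nonclassical heavy chain, also kept its call, at 7.92 to 9.78 CPM in the lung-poor MYCN ON tumors and 64.3 CPM in lung-poor MYCN OFF tumor 2 (-2.44, adjusted p = 0.00184 beside the split).

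Most of the genes with the smallest p beside the split had similar doxycycline terms with and without it, H2-T23 being an exception. Apex1, a DNA repair endonuclease, was at 38 to 58.2 CPM in all 7 MYCN ON tumors and at 8.91, 9.71, 9.60 and 8.04 CPM in the MYCN OFF tumors, with terms of 2.66 without and 2.52 beside the split (adjusted p = 0.00126 beside it). For Mif, a cytokine, the terms were 2.39 and 2.35, and for Dkc1, the pseudouridine synthase dyskerin, 2.17 and 2.20. Idi1, an isomerase of isoprenoid synthesis, had terms of 2.01 and 2.04. Among lower genes, the terms of Vil1, encoding villin, were -2.89 and -2.83 and those of Mgat1, an enzyme of N-glycan synthesis, -1.33 and -1.32. The terms of Scml4 were -2.65 and -2.83, and those of H2-T23, a nonclassical MHC class I gene, moved from -2.92 to -2.44. Lung terms were -0.28 for Apex1, -0.08 for Mif, 0.07 for Dkc1, 0.06 for Idi1, 0.15 for Vil1, 0.02 for Mgat1, -0.31 for Scml4 and 1.20 for H2-T23.

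**Figure D5:**
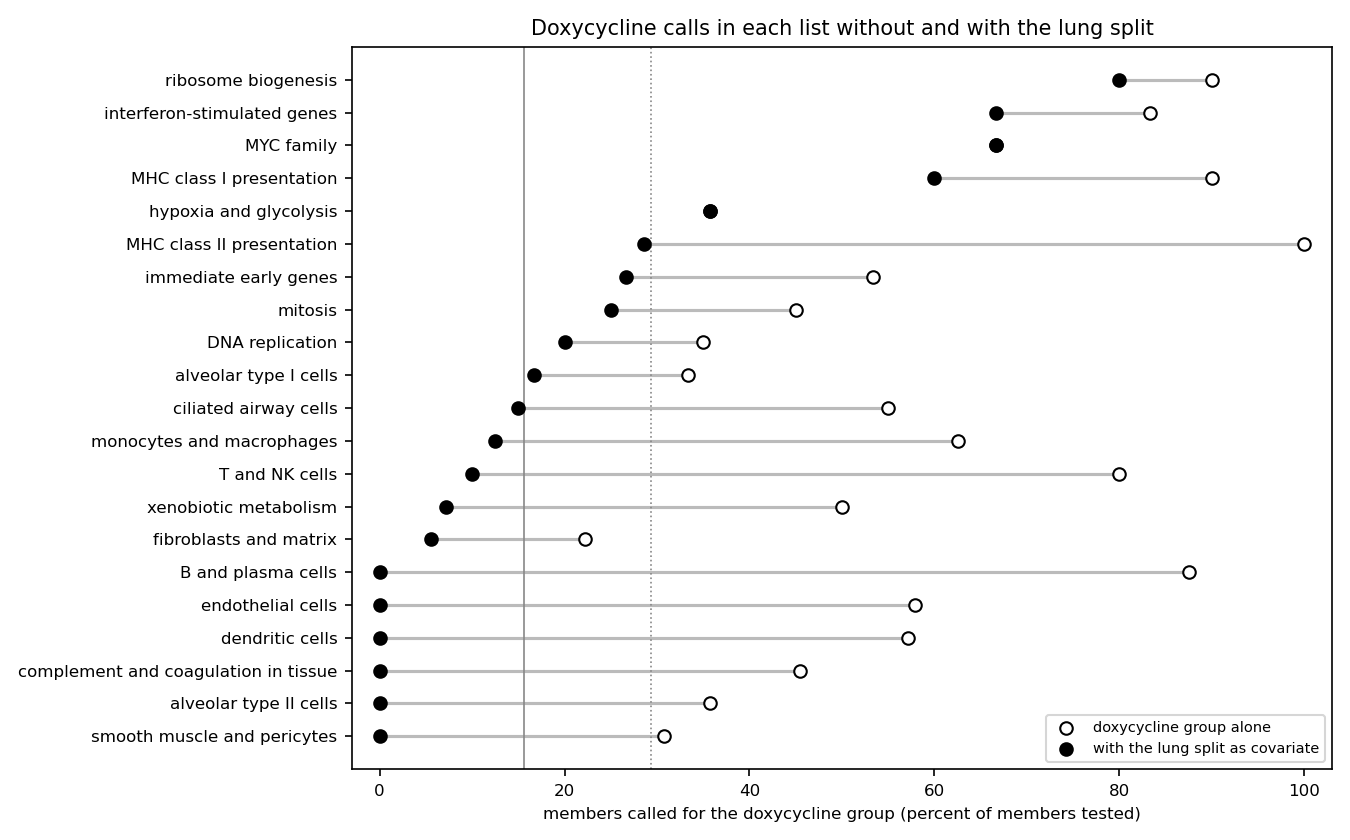
Percent of tested list members called for the doxycycline group, in either direction, without the lung split (open circles) and with it as covariate (filled circles), for the lists with the most members called. The dotted and solid vertical lines mark all genes, 29.4% without and 15.6% with the split. Ribosome biogenesis and interferon-stimulated genes stay far to the right, and B and plasma, endothelial and dendritic cell genes go to 0.

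A lung term that differs between MYCN ON and MYCN OFF tumors was not detected. The interaction called no gene (0%) with edgeR, and the smallest adjusted p was 0.891. DESeq2 called 9 genes and limma voom none, while 648 had an unadjusted p below 0.05. The MYCN OFF side of this comparison held a single lung-poor tumor. Within MYCN ON tumors alone, 2 against 5, 10 genes were called higher apart from Sftpc: Cldn18, Inmt, Cyp4b1, Sftpa1, Lamp3, Sftpb, Cxcl15, Napsa, Sfta2 and Clic5. All 10 were among the 30 of the full comparison. That comparison holds the same MYCN ON tumors and the same split, so nothing is read from the overlap. Within MYCN OFF tumors alone none was called at 3 against 1, where 1497 genes had an unadjusted p below 0.05, and DESeq2 and limma voom were not run there.

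Libraries held 8951733 to 13123838 gene reads, and the groups did not differ in depth beyond chance arrangement (2-sided exact permutation test, p = 0.916). Lung-containing tumors had a read for 17909 ± 271 (SD, n = 5) genes and lung-poor tumors for 17202 ± 404 (SD, n = 6), with an exact permutation p of 0.00649 and 0.0455 adjusted over 7 measures. That call held without MYCN OFF tumor 2 (adjusted p = 0.0278) and with no other single tumor left out, where adjusted p-values reached 0.133. TMM factors were 1.10 ± 0.108 (n = 5) and 0.932 ± 0.0899 (n = 6) (exact permutation p = 0.0260, adjusted 0.0909). The smallest p these permutations can give is 0.00216. They left out the doxycycline group, with which the split was partly aligned. TMM factors were 1.09 to 1.22 in MYCN OFF and 0.835 to 1.01 in MYCN ON tumors. Genes with a read numbered 17529 to 18241 in MYCN OFF and 16676 to 17708 in MYCN ON tumors. The part of doxycycline in these differences was not tested.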

How the data were processed

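Poly(A) RNA libraries of 11 mouse tumors were grouped by their titles. For each tumor the authors deposited raw counts of reads over 23284 genes, with no scaling applied. The submitters' processing notes name bcl2fastq 1.8.4, TopHat2 2.0.8b, HTSeq 0.6.1 and build mm9. Neither annotation nor strandedness is given in the sources used here, and antisense and overlapping genes cannot be told apart. Reads assigned to no gene, 14.8% to 21.5% of the records of a tumor, and 4 other summary entries stayed out.

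The members, gene lists (35, with 464 of 465 genes in the files) and tests were chosen with earlier results of these data known. Levels are plain CPM, that is, gene counts scaled to a library total of 1000000. Tests used R 4.3.3 and edgeR 4.0.16: filterByExpr by doxycycline group (minimum count 10, minimum total 15) left 15237 genes, scaled by TMM, and the robust quasi-likelihood fit had terms for doxycycline and the split. A Benjamini-Hochberg adjusted p below 0.05 made a call. Standard errors are the absolute log2 fold change over the square root of F. Sftpc was left out of counts and sums.

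Genes named were the markers, Mycn and Myc, up to 4 list members with the smallest p (2 where fewer than 3 were called), the 12 called genes with the smallest p for the split, and up to 4 for doxycycline in each direction. Further list members and called genes were named after their values were seen. Myc had a lung term of 0.56 (adjusted p = 0.558). On simulated counts for the 15237 genes the lung test recovered 7.46% of 2-fold, 58.2% of 4-fold and 97.0% of 16-fold changes, with 4.42% false among its calls. No pair of libraries agreed within sampling noise (smallest chi-square per gene 50.5). Alternatives were other scalings (RLE, upper quartile, totals), filters, DESeq2 1.42.0, limma 3.58.1 voom, Sftpc as a continuous term, a limit of 1000 CPM, a 1.5-fold minimum change, the replicate number as a block, each doxycycline group alone and each tumor left out. Promoters came from the RefSeq table.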

Additional observations from a re-analysis of the deposited data

Results flagged for a closer look

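Each of 98 values, marker levels and summed lists within each doxycycline group, was checked for a tumor far from the rest by Dixon's ratio. Chance alone marks about 1 in 20 such groups, and 8 were marked. In MYCN ON tumors, lung-containing tumor 5 stood apart with Foxj1 at 12.6 CPM and summed neutrophil genes at 180 CPM. Lung-poor MYCN ON tumor 2 stood apart with summed skeletal muscle genes at 122 CPM, above the others, and summed immediate early genes at 303 CPM, below them.

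In MYCN OFF tumors, lung-containing tumor 1 stood apart with summed ciliated genes at 1183 CPM. Lung-poor MYCN OFF tumor 2 stood apart with summed skeletal muscle genes at 654 CPM. Lung-containing MYCN OFF tumor 4 stood apart with Mycn at 6.70 CPM, below the others, and summed immediate early genes at 1248 CPM, above them.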

How the results depend on the processing

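The 30 genes called for the split kept their higher direction under each alternative that gave them a value, but the count of calls moved. The alternatives reuse the tumors in which these genes were picked as higher. Their kept direction was thus largely fixed in advance, and nothing is read from it. It was 350 with DESeq2, 5 with limma voom, 213 with log2 Sftpc as a continuous term, 492 without the doxycycline covariate, 7 at an adjusted p below 0.01, 10 in MYCN ON tumors alone, 0 in MYCN OFF tumors alone and 0 with the limit at 1000 CPM, which moves MYCN ON tumor 3 only. Leaving out single tumors gave 6 to 57. Calls for lower genes, 0 in the report, were 28 with DESeq2, 4 with continuous Sftpc, 12 without the covariate and 0 to 2 with a tumor left out. The cause was not tested. The 8 type II calls became 0 (MYCN OFF alone), 5 (MYCN ON alone), 1 (voom) and 0 (1000 CPM), and 3 to 9 with a tumor left out. The 4 type I calls became 8 (DESeq2), 0 (MYCN OFF alone), 2 (MYCN ON alone), 7 (continuous Sftpc), 2 (voom), 8 (no covariate) and 0 (1000 CPM), and 1 to 5 with a tumor left out.

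Doxycycline calls, 1591 higher and 789 lower, became 343 and 162 for changes above 1.5-fold, 827 and 1340 with library totals, 2437 and 2038 without the split, 1023 and 441 with the limit at 1000 CPM, and 548 and 155 at an adjusted p below 0.01. DESeq2 gave 1709 lower. Ranges with a tumor left out were 727 to 1554 and 74 to 861. The interaction had 9 calls with DESeq2.

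Whether the replicate numbers pair MYCN ON with MYCN OFF tumors was not tested. Same-numbered deviations correlated at -0.119, 0.449, -0.0897 and 0.263 for numbers 1 to 4. Of these 4 numbers, 2 matched best with themselves (numbers 2 and 4). The tumors numbered 2 were also those with most skeletal muscle RNA, at 122 CPM in MYCN ON and 654 CPM in MYCN OFF. With the replicate number as a block, 2 residual degrees of freedom remained in place of 8, and there were 0 calls for the split in either list and 0 for doxycycline in both directions, beside 1058 and 2851 genes at an unadjusted p below 0.05. Genes with few reads limit the fold changes: several called genes had under 5 reads in each lung-poor tumor, and a group of 1 lung-poor MYCN OFF tumor limits every comparison within MYCN OFF.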
